A study of Homo sapiens with 16 samples.

Results

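The genes described here are those that fill, empty and sense the calcium store of the endoplasmic reticulum (ER), chosen by name: the SERCA pumps ATP2A2 and ATP2A3, the IP3 receptors ITPR1, ITPR2 and ITPR3, the store sensors STIM1 and STIM2, the plasma membrane channels ORAI1 and ORAI3, and the ER membrane protein wolframin, WFS1. They were chosen with earlier results of these data known, among them the fall of WFS1 in both experiments. They are 10 of the 58051 genes in the table, and all 10 passed the filter on low counts in every comparison. RNA-seq was done on LNCaP cells, an androgen-responsive human prostate cancer line, at passage 20. In the knockdown experiment the cells received a control siRNA (siCtrl) or an siRNA against XBP1 (siXBP1), and 2 days later thapsigargin (TG) at 30 nM for 3 h. In the inhibitor experiment they were kept for 24 h in DMSO (Vehicle) or in 10 μM MKC8866, an inhibitor of the IRE1α RNase, before the same TG exposure. Each group held 4 libraries of 28713607 to 34509488 counted fragments. All groups, the controls included, were stressed with TG, all come from 1 cell line, and there was no library without TG, so each comparison is between stressed cells. The methods of the study list 1 siRNA product against XBP1 and a control siRNA from another maker. The knockdown values are those of that 1 product. The study calls the libraries of a group independent samples. Whether each came from its own culture is not given in the sources used here, and the p-values measure the spread between these libraries.

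SERCA pumps move calcium from the cytosol into the ER, and TG blocks them, so the store drains through leak channels and IP3 receptors. STIM proteins sense the fall in ER calcium and open ORAI channels in the plasma membrane, which lets calcium back in. Wolframin is an ER membrane glycoprotein that takes part in ER calcium balance and is lost in Wolfram syndrome, and IRE1α, by splicing the XBP1 mRNA, makes the transcription factor XBP1s in ER stress.

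Levels are given as CPM, counts scaled to library size by TMM over the 16 libraries. The targeted gene XBP1 averaged 384 CPM in siCtrl and 53.4 CPM in siXBP1, and 501 CPM in Vehicle and 577 CPM in MKC8866. These gene counts do not separate spliced from unspliced XBP1 mRNA. From reads over the splice junction, the study reported that both treatments depleted the spliced form. The XBP1s target DNAJB9, an ER co-chaperone, went from 227 to 45.9 CPM and from 179.7 to 49.3 CPM in the same pairs of groups. SERP1, an ER protein-stabilising factor and XBP1s target, went from 325 to 115 CPM and from 377 to 224 CPM. The prostate luminal markers KLK3, KLK2, KRT8 and KRT18 averaged between 101 and 896 CPM in every group, but 3 of these 4 differed between compared groups. KLK3 averaged 657 CPM in siCtrl and 363 in siXBP1, and 649 in Vehicle and 896 in MKC8866, with log2 fold changes of −0.86 and 0.46, both past the threshold. KLK2 fell after knockdown, from 173 to 101 CPM, and KRT18 fell in both experiments, with log2 fold changes of −0.35 and −0.22. The part of these shifts in the members' values was not tested. KRT14, TP63, KRT5, PECAM1 and PTPRC stayed under 1 CPM, VIM averaged 2.88 to 3.34 CPM, and COL1A1, a collagen gene of stroma, averaged 27.5 to 33.0 CPM, with a log2 fold change of −0.24 with MKC8866 that was past the threshold with the replicate block (edgeR adjusted p = 0.000157) and not without it (0.0799). In bulk RNA, fewer cells of a kind and less RNA per cell cannot be told apart.

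The 250 bases before the start of WFS1 and of ATP2A2, the 2 members that fell after XBP1 knockdown, are shown because XBP1s is a transcription factor that binds promoter elements. The sequences are from RefSeq (GRCh38.p14), both on the plus strand, and capitals mark CCACG, the short core shared by ER stress elements, on either strand. The WFS1 window is chr4:6269600-6269849, its last base being the first base of the gene in the deposited annotation. The ATP2A2 window is chr12:110280366-110280615, before the more upstream of its 2 RefSeq starts. It ends upstream of the first base of the gene in the deposited annotation, chr12:110280756.
WFS1: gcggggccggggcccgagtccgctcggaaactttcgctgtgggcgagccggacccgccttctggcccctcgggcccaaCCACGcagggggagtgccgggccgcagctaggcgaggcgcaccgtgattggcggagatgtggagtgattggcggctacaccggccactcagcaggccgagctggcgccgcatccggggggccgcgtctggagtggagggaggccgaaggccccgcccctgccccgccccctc
ATP2A2: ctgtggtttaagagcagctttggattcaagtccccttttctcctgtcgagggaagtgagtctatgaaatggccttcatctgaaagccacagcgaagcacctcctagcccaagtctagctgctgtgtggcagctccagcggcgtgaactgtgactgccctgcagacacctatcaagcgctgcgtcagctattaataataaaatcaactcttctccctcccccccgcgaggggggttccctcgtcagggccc
The WFS1 window holds 1 CCACG, from −172 to −168 relative to the start, and has a GC content of 75.2%. The ATP2A2 window shown holds none and has a GC content of 54.8%. The 250 bases before its other start (chr12:110280997-110281246) hold 1 on the minus strand and have a GC content of 80.4%. Of the 10 members, 7 had an entry in this promoter table, with 11 promoters in all, and ATP2A3, ITPR2 and ORAI1 had none. CCACG occurred in 6 of these 11 promoters, of 5 members, and in 33.5% of all 35116 promoters of this length. Several of the 11 belong to STIM1 and some of these overlap, so the 11 are not independent. The 5 members were WFS1, ATP2A2, ITPR1, STIM1 and STIM2, so CCACG was not confined to the members that fell. The longer XBP1s element TGACGTGG, which contains the core, was found in 0.612% of all promoters. ERSE (CCAAT and CCACG with 9 bases between them) was found in 0.074% and ERSE-II (ATTGG and CCACG with 1 base between them) in 0.0513%. None of these longer motifs was found as an exact match on either strand in the members' 11 promoters. Only exact matches were searched for. The WFS1 window holds cgaggcgcaccgtgattgg, which reads CCAAT, 9 bases and CCTCG on the minus strand, 1 base from ERSE. The ATP2A2 window not shown holds ccaatgagcggcgtccaca, or CCAAT, 9 bases and CCACA, also 1 base from ERSE. How often such near matches occur in other promoters was not counted. A match is a description of the letters and does not show binding, and a missing match concerns only this window.

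WFS1 (ENSG00000109501, chr4:6269849-6303265, plus strand, GRCh38) had the largest log2 fold change of any member in both experiments, and both were falls. It was expressed at 101, 111, 110.5 and 103 CPM in the 4 siCtrl libraries and at 52.1, 46.6, 44.2 and 49.0 CPM in the 4 siXBP1 libraries. In the inhibitor experiment it was at 101, 92.8, 98.3 and 98.6 CPM in Vehicle and at 52.0, 48.1, 52.8 and 54.0 CPM in MKC8866. Every treated library lay well below every control library of its experiment, and the treated libraries of both experiments overlapped each other. XBP1 knockdown lowered WFS1 by a log2 fold change of −1.15 (SE 0.051, edgeR quasi-likelihood test with Benjamini-Hochberg adjustment, adjusted p = 5.48e-14), which is a change of −55.0% with a 95% confidence interval of −58.2 to −51.5%. MKC8866 lowered it by −0.92 (SE 0.046, edgeR adjusted p = 8.89e-13), a change of −47.0% with an interval of −50.4 to −43.4%. By p, WFS1 was gene 104 of 21021 tested after knockdown and gene 14 of 21045 with MKC8866.

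**Figure D1:**
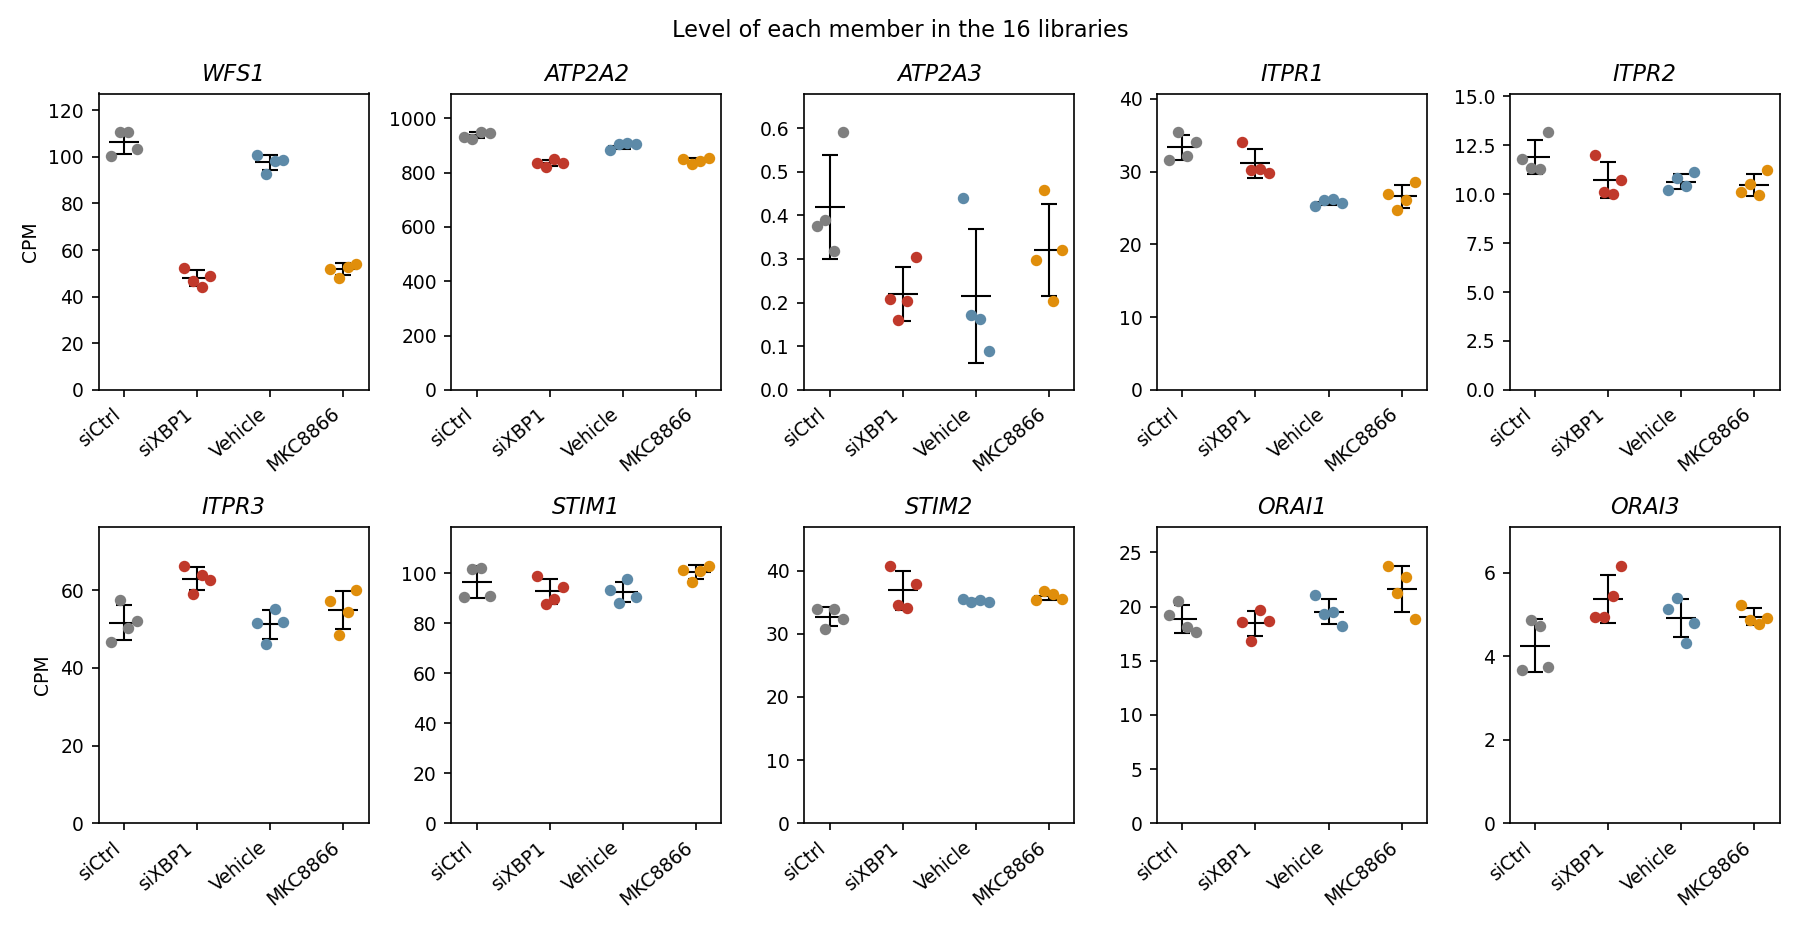
Level of the 10 genes in CPM (vertical axis from 0) in each of the 16 libraries, by group, with points for libraries and black lines for the mean and SD of 4 libraries. WFS1 sits near 100 CPM in both control groups and near 50 CPM in both treated groups, while the groups of most other genes lie close together.

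Across the 16 libraries, with the mean of each experiment removed, the log2 CPM of 15037 genes were compared with those of WFS1, and the 3 most alike were SYVN1, CANT1 and FICD. Their Pearson correlations were 0.995, 0.993 and 0.992, given as a description, since the points share libraries and the groups make most of the spread. SYVN1 encodes the ubiquitin ligase HRD1 of ER-associated degradation, and it averaged 320.4 CPM in siCtrl, 118 in siXBP1, 293 in Vehicle and 133 in MKC8866. CANT1 encodes a calcium-activated nucleotidase, and its log2 fold changes were −0.84 after knockdown and −0.81 with MKC8866. FICD encodes the enzyme that AMPylates the chaperone BiP, and its log2 fold changes were −2.52 and −2.06.

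Among the pumps, ATP2A2 (SERCA2, the housekeeping ER calcium pump, ENSG00000174437, chr12:110280756-110351093, plus strand) was the most abundant member by far, and ATP2A3 (SERCA3) was near the limit of detection. ATP2A2 was at 933, 925, 949 and 944 CPM in siCtrl and at 835, 822, 849 and 835 CPM in siXBP1. It was at 882, 905, 908 and 905 CPM in Vehicle and at 849, 834, 843 and 854 CPM in MKC8866. In both experiments each treated library was below each control library, by a small margin. The log2 fold change after knockdown was −0.17 (SE 0.036, edgeR adjusted p = 0.000586), a change of −11.2% with a 95% confidence interval of −15.6 to −6.49%. With MKC8866 it was −0.09 (SE 0.033), a change of −6.25%, which did not pass the threshold (edgeR adjusted p = 0.127). Same-numbered libraries of the inhibitor experiment tended to move together across genes, least for replicate 3, and were taken as pairs from these data. A fit with the library number as a replicate block gave a log2 fold change of −0.09 with an edgeR adjusted p of 0.00106. ATP2A3 had 3 to 20 counts in a library. It ranged from 0.317 to 0.591 CPM in siCtrl and from 0.16 to 0.306 CPM in siXBP1, without overlap, with a log2 fold change of −0.92 (SE 0.38, edgeR adjusted p = 0.07) that missed the threshold. In Vehicle it ranged from 0.088 to 0.439 CPM and in MKC8866 from 0.204 to 0.459 CPM, ranges that overlap. ATP2A2 made up at least 99.9% of the summed level of the pair per kilobase in each group mean. Another SERCA gene, ATP2A1, is not a member and was left out of this sum. Its group means were 0.547 to 0.575 CPM per kilobase.

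Of the IP3 receptors, the channels that release ER calcium when IP3 binds, ITPR3 was higher after knockdown and the other two did not pass the threshold in either experiment. ITPR3 (ENSG00000096433, chr6:33620365-33696574, plus strand) was at 46.7, 57.4, 50.3 and 51.9 CPM in siCtrl and at 66.3, 59.0, 64.0 and 62.7 CPM in siXBP1. The lowest siXBP1 library was above the highest siCtrl library, and the log2 fold change was 0.28 (SE 0.055, edgeR adjusted p = 0.000275), a rise of 21.7% with a 95% confidence interval of 12.4 to 31.6%. In Vehicle ITPR3 was at 51.5, 46.2, 55.3 and 51.9 CPM and in MKC8866 at 57.1, 48.4, 54.4 and 59.9 CPM. These groups overlap, and the log2 fold change of 0.10 (SE 0.060) had an edgeR adjusted p of 0.475, or 0.0702 with the replicate block. ITPR3 shares 1025 exon bases (10.4% of its exon length) with UQCC2, which lies on the other strand, and fragments in bases shared by 2 genes were not counted for either. UQCC2 itself had a log2 fold change of 0.13 after knockdown (edgeR adjusted p = 0.0683), and its part in the ITPR3 value was not tested.

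ITPR1, the IP3 receptor best known from neurons, averaged 33.3 ± 1.78 CPM (SD, n = 4) in siCtrl, 31.1 ± 1.98 in siXBP1, 25.8 ± 0.459 in Vehicle and 26.6 ± 1.61 in MKC8866. Its log2 fold changes were −0.10 (95% confidence interval −0.22 to 0.01) after knockdown and 0.04 (−0.07 to 0.16) with MKC8866. ITPR2 was the least abundant of the 3 receptors, at 11.9 ± 0.875 CPM in siCtrl, 10.7 ± 0.925 in siXBP1, 10.6 ± 0.40 in Vehicle and 10.5 ± 0.565 in MKC8866. Its log2 fold changes were −0.16 (−0.32 to 0.01) and −0.03 (−0.18 to 0.12). The groups of both genes overlapped in both experiments.

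Of the sensors, STIM2 was higher after knockdown, and STIM1 passed the threshold with MKC8866 only in the fit with the replicate block. STIM2 (ENSG00000109689, chr4:26857678-27025381, plus strand), the sensor that responds to smaller falls in ER calcium, was at 33.9, 30.7, 33.9 and 32.4 CPM in siCtrl and at 40.8, 34.6, 34.1 and 37.9 CPM in siXBP1. The groups were apart by a narrow gap, and the log2 fold change was 0.17 (SE 0.060, edgeR adjusted p = 0.0343), or a rise of 12.3%. This call was lost in 4 of the 8 fits that left out 1 library, with an adjusted p of edgeR of 0.0849 without siCtrl replicate 2, 0.054 without siCtrl replicate 4, 0.13 without siXBP1 replicate 1 and 0.083 without siXBP1 replicate 4. In Vehicle STIM2 averaged 35.2 ± 0.211 CPM and in MKC8866 36.0 ± 0.698 CPM (SD, n = 4). The log2 fold change was 0.03 with a 95% confidence interval of −0.07 to 0.13. STIM1 (ENSG00000167323, chr11:3854527-4093210, plus strand), the main sensor of a drained store, was at 90.7, 102, 102 and 90.9 CPM in siCtrl and at 99.1, 87.9, 89.9 and 94.6 CPM in siXBP1. These libraries are mixed, and the log2 fold change of −0.06 had an interval of −0.16 to 0.05. In Vehicle STIM1 was at 93.5, 88.3, 97.7 and 90.5 CPM and in MKC8866 at 101, 96.4, 101 and 103 CPM. The MKC8866 libraries were higher with a small overlap, and the log2 fold change was 0.12 (SE 0.043, edgeR adjusted p = 0.153). With the replicate block it passed the threshold (log2 fold change 0.12, edgeR adjusted p = 0.00382). That was 1 of 14 alternative fits, and STIM1 was called in 0 of the 8 fits that left out 1 library.

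The channels at the plasma membrane were expressed at lower CPM. ORAI1, which forms the pore of the calcium release-activated channel, averaged 18.9 ± 1.29 CPM (SD, n = 4) in siCtrl, 18.4 ± 1.17 in siXBP1, 19.5 ± 1.18 in Vehicle and 21.6 ± 2.14 in MKC8866. Its log2 fold changes were −0.04 (95% confidence interval −0.18 to 0.10) after knockdown and 0.14 (0.00 to 0.29) with MKC8866, where the adjusted p of edgeR was 0.343, or 0.0585 with the replicate block. ORAI3 (ENSG00000175938, chr16:30949066-30956461, plus strand), another pore subunit, was at 3.67, 4.87, 4.73 and 3.75 CPM in siCtrl and at 4.93, 4.94, 5.45 and 6.17 CPM in siXBP1. The groups were just apart, at 117 to 163 and 142 to 202 counts, and the log2 fold change was 0.34 (SE 0.12, edgeR adjusted p = 0.0308). This call too was lost in 4 of 8 fits without 1 library, with an adjusted p of edgeR of 0.0883 without siCtrl replicate 1, 0.0856 without siCtrl replicate 4, 0.0506 without siXBP1 replicate 3 and 0.125 without siXBP1 replicate 4. In Vehicle ORAI3 averaged 4.92 ± 0.46 CPM and in MKC8866 4.95 ± 0.197 CPM, with a log2 fold change of 0.01 and an interval of −0.19 to 0.22. A gene on the same strand, ENSG00000261487, shares 52.9% of the exon length of ORAI3, so only the rest of ORAI3 could be counted.

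Counted over the 10 members, XBP1 knockdown lowered 2 (WFS1 and ATP2A2) and raised 3 (ITPR3, STIM2 and ORAI3). Of all genes tested, 18.2% were lower and 16.5% higher, so 2 and 3 of 10 are not far from the background of that comparison. The groups did not overlap for 6 members, against 32.3% of all genes. MKC8866 lowered 1 member, WFS1, where 3.11% of all genes were lower and 1.36% higher. With the replicate block it lowered WFS1 and ATP2A2 and raised STIM1, where 7.05% of all genes were lower and 6.0% higher. The groups of the inhibitor experiment did not overlap for 2 members, WFS1 and ATP2A2, against 9.18% of all genes. The median log2 fold change of the 10 members was −0.08 after knockdown and 0.04 with MKC8866, and that of all genes tested was 0.00 in both. The shares of all genes include genes with few counts and were not matched to the level of the members. The members were chosen with the fall of WFS1 known, so these counts and medians are descriptions and not those of a neutral sample.

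**Figure D2:**
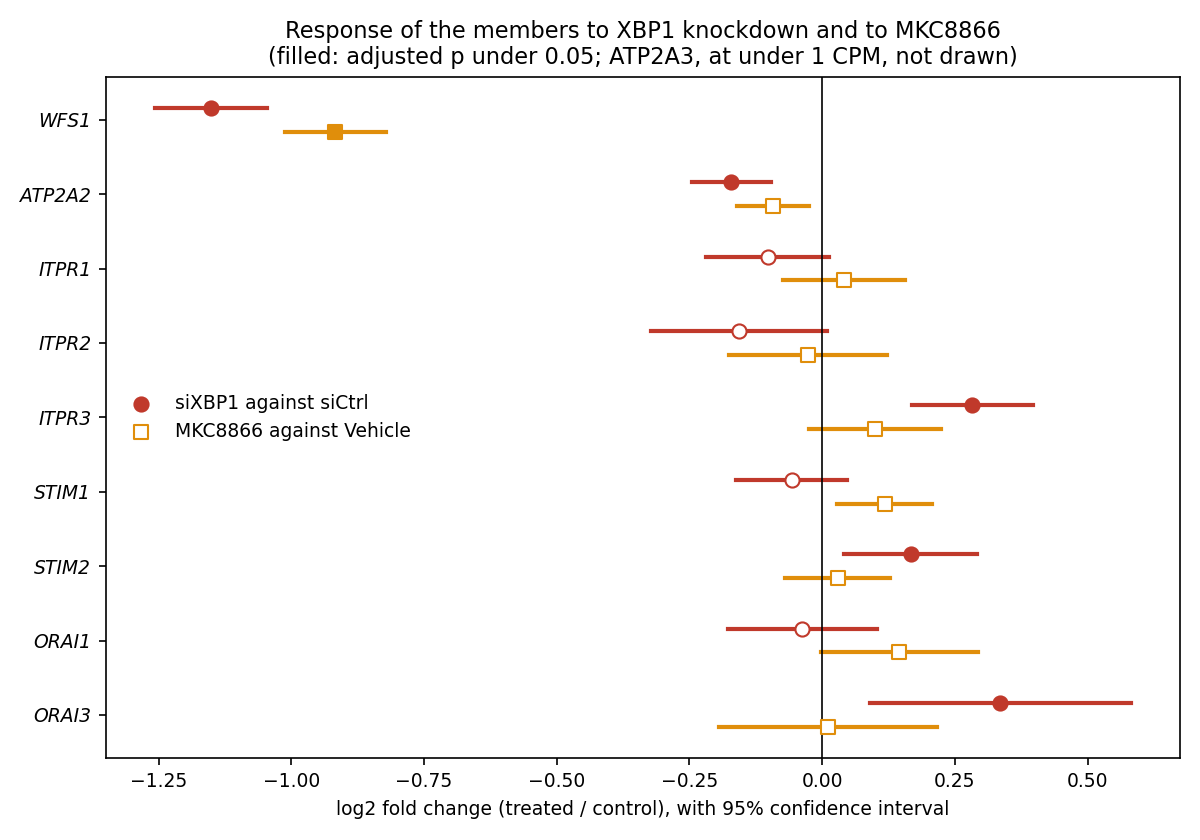
Log2 fold change of 9 of the 10 genes (horizontal axis) with its 95% confidence interval, after XBP1 knockdown (circles) and with MKC8866 (squares), from the fits without the replicate block, with filled symbols for an adjusted p under 0.05. ATP2A3, with 3 to 20 counts in a library, is left out. WFS1 lies at −1.15 and −0.92, and every other gene drawn lies between −0.17 and 0.34.

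The difference between the responses in the 2 experiments was tested in one model of the 16 libraries, in which the kind of inhibition and the experiment cannot be told apart. WFS1 fell more after knockdown than with MKC8866, by a difference of −0.23 (SE 0.069, edgeR adjusted p = 0.014). It was the only member past the threshold, where 23.3% of all 20357 genes were. With the replicate block WFS1 and STIM1 passed, STIM1 with a difference of −0.17 (edgeR adjusted p = 0.0478, against 0.0617 without the block), where 27.7% of all genes did. ATP2A3 had the largest difference, −1.51 (95% confidence interval −2.70 to −0.31), but at 3 to 20 counts in a library it did not pass (edgeR adjusted p = 0.0622). For ITPR3 the difference was 0.19 (95% confidence interval 0.01 to 0.36, edgeR adjusted p = 0.129), and for ORAI3 it was 0.33 (0.01 to 0.64, edgeR adjusted p = 0.132). For STIM2 it was 0.14 (−0.02 to 0.30) and for ATP2A2 −0.08 (−0.17 to 0.02), and a different response in the 2 experiments was not shown for these members.

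To compare levels between genes, the CPM were divided by exon length in kilobases. ATP2A2 was first in every group, at 68.2 ± 0.808 CPM per kilobase in siCtrl (SD, n = 4). WFS1 was second in both control groups, at 23.5 ± 1.13 in siCtrl and 21.6 ± 0.746 in Vehicle, above STIM1 at 13.5 ± 0.902 and 12.97 ± 0.575. In both treated groups STIM1 was second, at 13.02 ± 0.70 in siXBP1 and 14.1 ± 0.398 in MKC8866, and WFS1 came next, at 10.6 ± 0.75 and 11.5 ± 0.561, without overlap of their libraries. ORAI1, ITPR3, STIM2, ITPR1, ORAI3, ITPR2 and ATP2A3 followed in that order in all 4 groups by full exon length. ITPR3 and STIM2 overlapped in their libraries in siCtrl, Vehicle and MKC8866, and ITPR1 and ORAI3 in siXBP1, Vehicle and MKC8866. The place of ORAI3 turned with the length used. Over the 1246 exon bases that it shares with no other gene, a length tried after the data had been seen, ORAI3 was at 3.41 ± 0.508 CPM per kilobase in siCtrl, 4.31 ± 0.47 in siXBP1, 3.95 ± 0.369 in Vehicle and 3.98 ± 0.158 in MKC8866. On that length it stood above ITPR1 in all 4 groups without overlap, and the order of the other genes was as before.

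Within the families, ITPR3 made up 59.7 ± 1.40% of the IP3 receptor level per kilobase in siCtrl and 66.2 ± 1.03% in siXBP1 (SD, n = 4). In Vehicle it made up 64.6 ± 1.82% and in MKC8866 65.8 ± 1.16%. The mean share in Vehicle thus lay between those of siCtrl and siXBP1. Vehicle and siCtrl come from different experiments, and the difference between their shares was not tested. ITPR1 held 29.6 ± 0.465% in siCtrl and 24.4 to 25.0% on average in the other groups. STIM1 made up 74.0 ± 1.78%, 71.0 ± 0.692%, 71.8 ± 0.801% and 73.0 ± 0.907% of the STIM level in siCtrl, siXBP1, Vehicle and MKC8866. ORAI2, which is not a member, was left out of the ORAI sum, at 2.56 CPM per kilobase in siCtrl and 1.80 in siXBP1. By full exon length ORAI3 was at 1.61 and 2.03 in these groups. ORAI3 made up 16.1 ± 1.83% of the summed ORAI1 and ORAI3 level in siCtrl and 19.9 ± 1.55% in siXBP1. When the exon bases it shares with another gene were left out of its length, a setting added after the data had been seen, these shares were 29.0 ± 2.78% and 34.6 ± 2.18%. These shares are descriptions and were not tested.

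**Figure D3:**
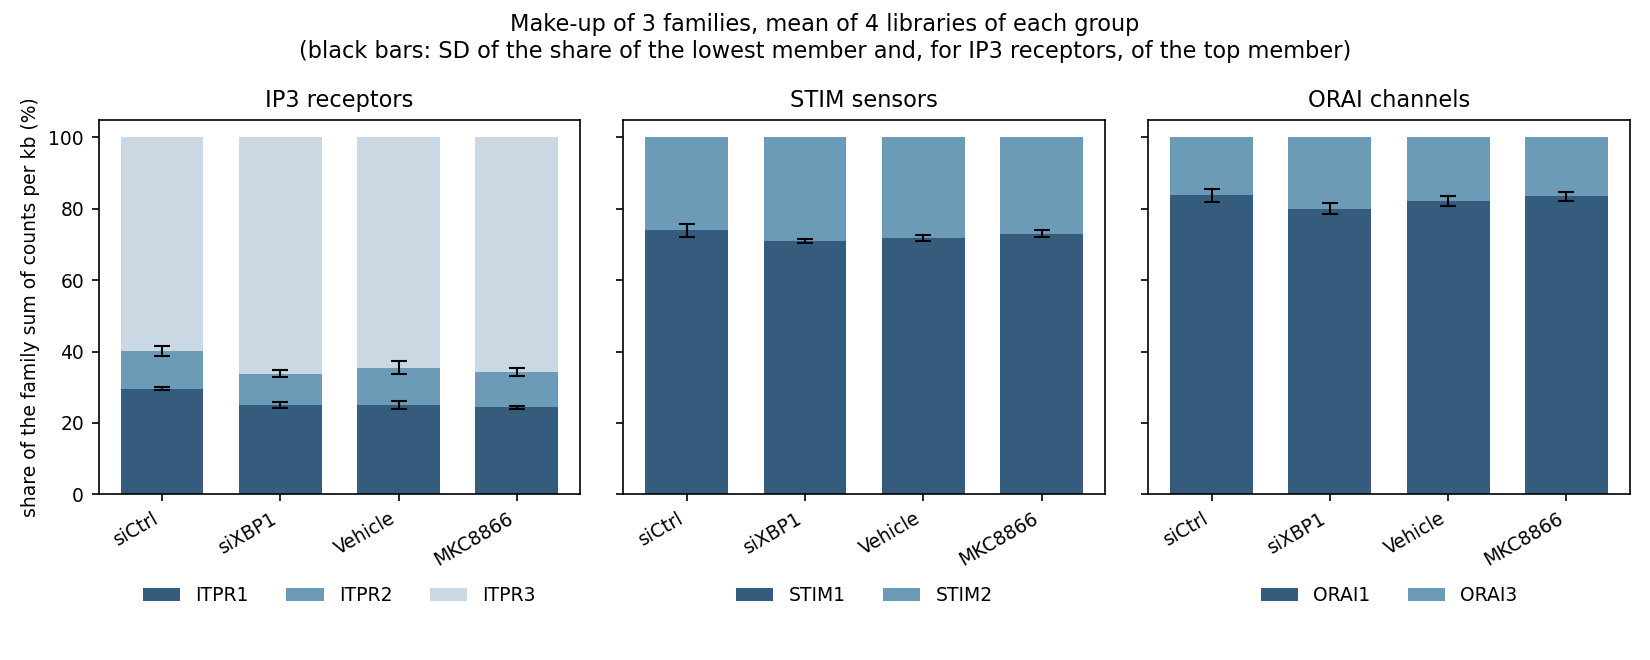
Mean share (vertical axis, in percent, from 0) of each gene in a summed level per kilobase, in each group of 4 libraries, with black bars for the SD. The sums are those of the IP3 receptors, the STIM sensors, and ORAI1 with ORAI3, leaving out ORAI2. ITPR3, STIM1 and ORAI1 are the largest parts of these sums in all 4 groups. The ITPR3 part is 59.7% in siCtrl and 64.6 to 66.2% in the other groups.

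The wider calcium pathway was described with 7 lists of 95 genes, none of them members. After knockdown 24 of the 85 genes tested were lower and 16 higher, and with MKC8866 11 of 87 were lower and 2 higher, or 16 and 6 with the replicate block. These counts, and those of each list, are to be read against the shares of all genes, which were 18.2% lower and 16.5% higher after knockdown, 3.11% and 1.36% with MKC8866, and 7.05% and 6.0% with MKC8866 and the block. Those shares include genes with few counts and were not matched to the expression level of the listed genes. The medians of the log2 fold changes were −0.03 and −0.01. The lists too were chosen with earlier results of these data known. Among regulators of SERCA and of the IP3 receptors, 2 of 14 were lower and 1 higher after knockdown, and 2 of 15 were lower and 1 higher with MKC8866. ERP44, an ER lumenal thioredoxin-like protein that binds ITPR1, fell in both experiments, with log2 fold changes of −0.27 and −0.21. ERLIN2, part of the complex that degrades activated IP3 receptors, fell by 0.56 on the log2 scale after knockdown and had a log2 fold change of 0.03 with MKC8866. With MKC8866, CISD2 was lower (−0.26) and ITPRIP, an IP3 receptor inhibitor, was higher (0.27). SELENON, a SERCA redox regulator, was higher after knockdown (0.15). Of the 9 other ER leak and release channels tested, GRINA was the 1 gene called after knockdown (0.15). With MKC8866 edgeR called 0 of the 9, or 2 lower with the replicate block, and 1 had an unadjusted p under 0.05.

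Of the 11 partners of store-operated entry, 5 were lower and 1 higher after knockdown, and 3 were lower with MKC8866 (3 lower and 1 higher with the replicate block). ORAI2, the third ORAI channel gene, averaged 28.4 CPM in siCtrl, 20.0 in siXBP1, 29.3 in Vehicle and 24.0 in MKC8866. Its log2 fold changes were −0.51 (SE 0.064, edgeR adjusted p = 1.23e-06) and −0.29 (SE 0.059, edgeR adjusted p = 0.00248), so ORAI2 fell in both experiments while ORAI1 was not called in either. SELENOK, an ER selenoprotein needed for calcium flux in immune cells, fell in both experiments too, with −0.53 and −0.50. STIMATE, an ER protein that binds STIM1, was higher after knockdown (0.50) at a mean of 2.4 to 3.3 CPM.

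Of the 13 lumenal calcium-binding proteins tested, 5 were lower and 3 higher after knockdown, and 3 were lower with MKC8866 (5 with the replicate block). CALU (calumenin) and NUCB2 (nucleobindin) fell in both, with log2 fold changes of −0.80 and −0.42 for CALU and −0.77 and −0.52 for NUCB2. The chaperone HSPA5 (BiP) was higher after knockdown (0.30, edgeR adjusted p = 1.69e-05) and lower with MKC8866 (−0.15, edgeR adjusted p = 0.00476). HSP90B1 (GRP94) was higher after knockdown (0.27) and had a log2 fold change of 0.01 with MKC8866.

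Of the 17 genes of mitochondrial calcium uptake and ER contacts, 4 were lower and 4 higher after knockdown, and 2 were lower with MKC8866 (2 lower and 1 higher with the replicate block). MCU, the pore of the mitochondrial uniporter, fell by 1.43 on the log2 scale after knockdown and had a log2 fold change of 0.09 with MKC8866. MCUR1, a regulator of the uniporter, had log2 fold changes of −1.56 and −0.20, both past the threshold. SMDT1, which encodes the uniporter subunit EMRE, was lower with MKC8866 (−0.26), and MICU3 (0.21) and PACS2 (0.14) were higher after knockdown. Of the 7 pumps and channels of the plasma membrane and Golgi tested after knockdown, 4 were lower and 2 higher. The plasma membrane calcium pumps went in opposite directions, ATP2B4 with a log2 fold change of −1.50 and ATP2B1 with 0.61, and TRPM8 (−0.74) was lower and the Golgi pump gene ATP2C2 (0.13) higher. With MKC8866, TRPM4 (−0.25) was the 1 gene of 8 called without the replicate block. With the block ATP2B4 was called as well, as higher (0.14, edgeR adjusted p = 0.000684), opposite to its fall after knockdown. Of the 14 genes of IP3 production and turnover tested, 4 were lower and 4 higher after knockdown, among them the phospholipases PLCG1 (−0.75) and PLCD1 (−0.33), the phosphatase INPP5A (0.65) and the G protein GNAQ (0.52). With MKC8866, ITPKB, an IP3 kinase, was the 1 gene called without the block (0.20), and with the block PLCD1 was lower (−0.22) and GNAQ higher (0.12) as well.

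**Figure D4:**
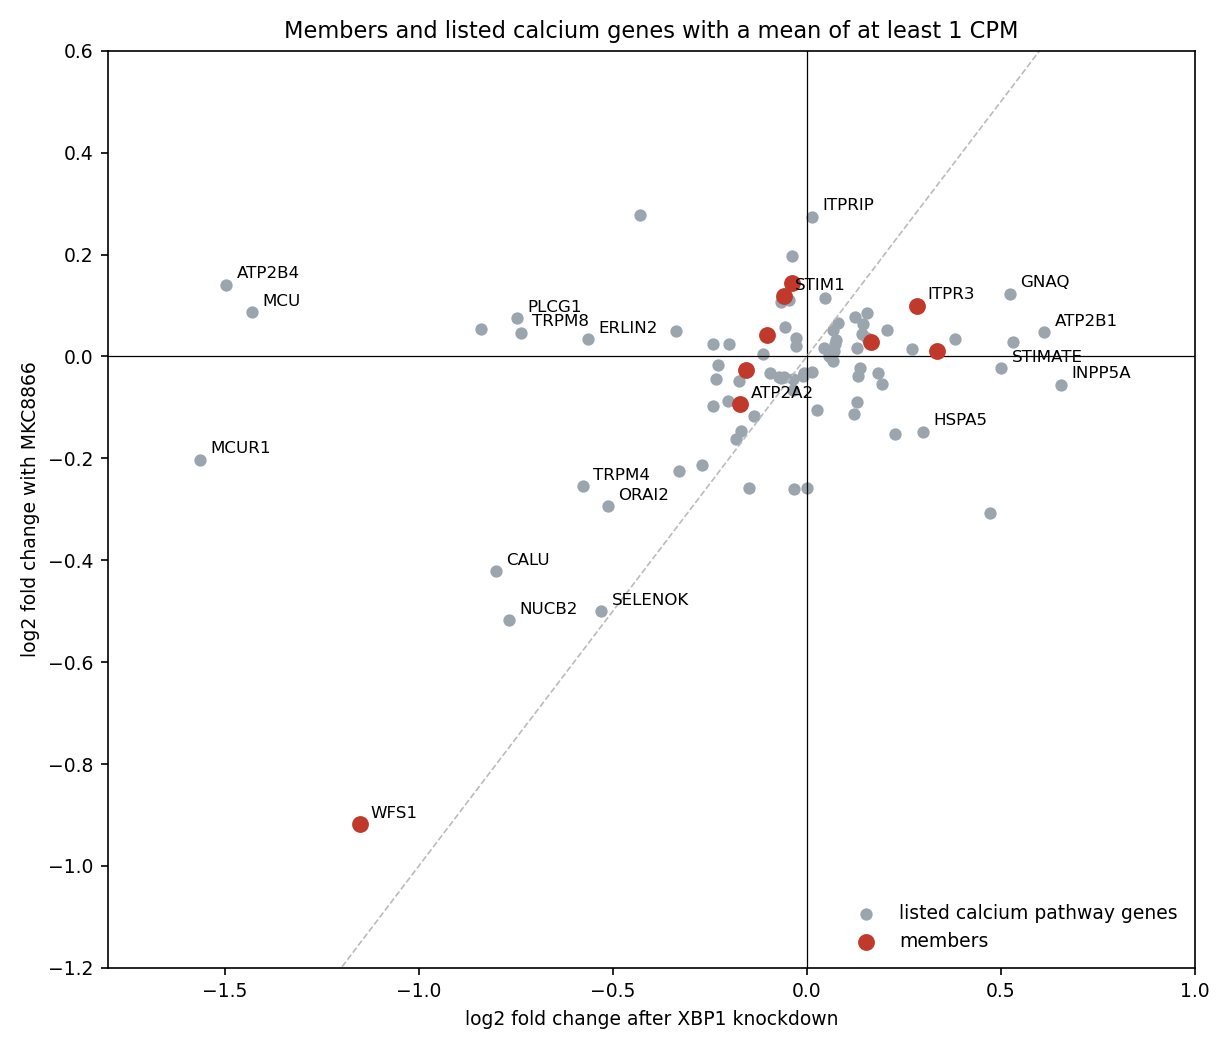
Log2 fold change after XBP1 knockdown (horizontal axis) against that with MKC8866 (vertical axis) for 9 members and 79 listed calcium genes with a mean of at least 1 CPM, with the dashed line for equal values. WFS1 stands alone at −1.15 and −0.92, and ORAI2, SELENOK, CALU and NUCB2 lie below 0 on both axes. ATP2B4, MCU and MCUR1 lie below −1.4 on the horizontal axis, and on the vertical axis at 0.14, 0.09 and −0.20.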

How the data were processed

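According to the study, stranded paired-end RNA-seq libraries of LNCaP cells were aligned to GRCh38 with STAR (2.5.2a in the submitters' processing notes) and counted with featureCounts (1.5.0) on Ensembl genes. The authors deposited raw counts, 1 value per gene and library, for which featureCounts ignored the strand. Columns were matched to groups through the sample titles. Counts were tested with edgeR 4.0.16 (TMM, quasi-likelihood F test, two-sided) in R 4.3.3, in 1 model per treatment against its own control as the study did, keeping a gene if each group had 1 or more libraries above 5 counts. Adjusted p-values (Benjamini-Hochberg) are over all genes tested, with a threshold of 0.05. A model of all 16 libraries tested the difference between the responses.

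CPM were scaled by TMM over the 16 libraries. DESeq2 1.42.0, other filters and scalings, a replicate block, a stricter threshold and the removal of each library were tried as alternatives, and the model was tested on simulated data with 200 changed genes. Depth was 28713607 to 34509488 counts per library, and for members with few counts counting error limits the precision.

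In the inhibitor experiment the deviations of same-numbered libraries from their group means correlated at 0.215, 0.379, 0.102 and 0.226 over 15037 genes, so the numbers were taken to pair these libraries. No source used here states such a pairing, and MKC8866 replicate 3 correlated best with Vehicle replicate 1. In the knockdown experiment the correlations were 0.0438, 0.000185, 0.0446 and 0.0679, and the libraries there share only a number.

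All members are named. Of each list, the text names the called genes with the largest absolute log2 fold change, at most 2 lower and 2 higher per comparison, with a mean CPM of at least 1, and, for a member called in both comparisons, the 3 genes most correlated with it (pseudocount 0.5 CPM). XBP1, DNAJB9 and SERP1 served as checks. Some of the luminal markers examined are not reported here. The members and lists were chosen with earlier results of these data known, and among these was the fall of WFS1 in both experiments.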

Additional observations from a re-analysis of the deposited data

Results flagged for a closer look

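In 2 of 40 groups of 4 libraries 1 library lay far from the other 3, which chance gives in about 5% of such groups. These were ATP2A2 in Vehicle, where replicate 1 was lowest at 882 CPM, and ITPR1 in siXBP1, where replicate 1 was highest at 34.1 CPM.

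The other results here are differences between the responses to knockdown and to MKC8866 (knockdown minus MKC8866, log2) that passed an adjusted p of 0.05 in the edgeR test of the difference itself. Of the members, only WFS1 did in the model without the replicate block, with −0.23. Of the listed genes that the text names, the knockdown value was the lower one for ATP2B4 (−1.64), MCU (−1.52), MCUR1 (−1.36), PLCG1 (−0.82), TRPM8 (−0.78), ERLIN2 (−0.60), CALU (−0.38), TRPM4 (−0.32), NUCB2 (−0.25) and ITPKB (−0.23). It was the higher one for INPP5A (0.71), ATP2B1 (0.57), STIMATE (0.53), HSPA5 (0.45), GNAQ (0.40), HSP90B1 (0.26) and ATP2C2 (0.22). These genes were named for a large called change in a comparison, which favours a difference, so they are descriptions. Of all 84 listed genes tested, the knockdown value was lower for 16 and higher for 10 at this threshold. Of all 20357 genes tested, 23.3% differed in either direction. The kind of inhibition and the experiment cannot be told apart in these differences.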

How the results depend on the processing

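The log2 fold changes of WFS1 kept their direction and their call in all alternatives, from −1.18 to −1.11 after knockdown and from −0.94 to −0.89 with MKC8866, and its difference between the experiments ranged from −0.27 to −0.20. Of 485 values recomputed for members under an alternative fit at the threshold of 0.05, 460 kept their direction and their side of the threshold, 8 lost the call (STIM2 and ORAI3 after knockdown, each in 4 fits without 1 library), 12 gained it and 5 changed sign. Without 1 library, the log2 fold change of ORAI1 after knockdown ranged from −0.065 to 0.014 and that of ORAI3 with MKC8866 from −0.046 to 0.054. The sign changed for ORAI1 after knockdown without siCtrl replicate 2 (0.01) and without siXBP1 replicate 2 (0.01), and for ORAI3 with MKC8866 without Vehicle replicate 3 (−0.05), without Vehicle replicate 4 (−0.0025) and without MKC8866 replicate 1 (−0.02), and none of these values was called.

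With the replicate block, 2746 genes were called with MKC8866 against 941 without it, and 3 members against 1. The block gave 7323 genes and 5 members after knockdown, and 2 members whose responses differed, against 1. DESeq2 called 2 members with MKC8866, WFS1 and ATP2A2 (adjusted p = 0.0301). At an adjusted p of 0.01, edgeR called 595 genes with MKC8866, 3133 genes whose responses differed (4735 at 0.05), 3 members after knockdown (STIM2 and ORAI3 were lost) and 0 members whose responses differed (WFS1 was lost), where 5 had an unadjusted p under 0.05 and DESeq2 called 1 at 0.05. Leaving out 1 library gave 3 to 5 members after knockdown (3 without siCtrl replicate 4 or siXBP1 replicate 4, where STIM2 and ORAI3 were lost), 1 with MKC8866, and 1 to 2 whose responses differed. Of such fits, the STIM1 difference passed the threshold in 5 of 16 (without siCtrl replicate 1 or 4, siXBP1 replicate 1, Vehicle replicate 3 or MKC8866 replicate 2), that of ATP2A3 in 2 of 15 (without siXBP1 replicate 4 or MKC8866 replicate 3) and that of ITPR3 in 1 of 16 (without siCtrl replicate 2). The cause of these changes was not tested. ATP2A3, at 3 to 20 counts, is limited by depth.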
